A study of Mus musculus with 4 samples.

Results

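β-cells with and without detected mRNA for inducible nitric oxide synthase (Nos2) were compared in mouse islets that had been exposed to IL-1β and IFN-γ together for 6 h. Within that library, barcodes with 200 to 4000 detected genes, at most 12% mitochondrial and at least 4000 unique molecular identifiers (UMIs, which mark single mRNA molecules) were kept. A β-cell had at least 5% of its UMIs from Ins1 and Ins2, the insulin genes, and under 1% each from Gcg, Sst and Ppy. The rule gave 1224 β-cells of 1712 kept cells and 2480 barcodes. Of these, 882 had at least 1 Nos2 UMI (Nos2-positive) and 342 had none (Nos2-negative). The islets came from adult male C57BL/6 mice (C57BL6/J in the study's methods), were pooled and then separated into 4 samples, and were treated ex vivo as intact islets before dissociation and droplet-based single-cell RNA sequencing. The other samples were untreated islets, islets with IL-1β alone and islets with IFN-γ alone. They gave 1135, 1049 and 1206 β-cells by the same rule and serve here as reference levels. The sources used here name no genetic change in any group. Iapp, a β-cell hormone gene that the rule did not use, was detected in 100% of Nos2-positive and 100% of Nos2-negative cells.

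Each condition had 1 library, so that no difference has a replicate check, no test was run, and cells were not treated as replicates. The level of a gene is its summed UMIs per 1000000 UMIs of a group (CPM, counts per 1000000), and the log2 ratio is that of the CPM of Nos2-positive over Nos2-negative cells. Intervals are exact 95% intervals that cover counting error only. Because the groups were set by a measured transcript of the same cells, every difference below is a description of that split.

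Inducible nitric oxide synthase makes nitric oxide from arginine and needs tetrahydrobiopterin as a cofactor. In β-cells, IL-1β acts through its receptor and MyD88 on the transcription factor NF-κB, which acts on Nos2 and on chemokine and adhesion genes. IFN-γ acts through its receptor and Jak kinases on Irf1 and on genes with interferon-stimulated response elements (ISRE) or gamma-activated sites (GAS). Nitric oxide inhibits mitochondrial oxidation in β-cells and lowers insulin secretion. The comparison asks what else differs in β-cells of one dish when Nos2 mRNA is detected.

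Nos2 (ENSMUSG00000020826) lies at chr11:78920787-78960254 on the plus strand of GRCm38 (mm10). The positive cells held 9862 Nos2 UMIs, or 851 CPM (834 to 868). Their number of Nos2 UMIs ran from 1 to 76, with a median of 8 and quartiles of 3 and 16. The distribution was uneven, since the 228 cells with 16 or more UMIs held 58.2% of all Nos2 UMIs. Just inside the threshold were 88 cells with 1 UMI, and just outside were the 342 with 0. Nos2-positive cells were 72.1% (69.5 to 74.6) of β-cells with both cytokines. They were 30.8% (28.0 to 33.7) with IL-1β alone and 0.580% (0.234 to 1.19) with IFN-γ alone. In untreated islets they were 0 of 1135, which allows a share of cells with a UMI of up to 0.264% (3 counts of the total). In the library with both cytokines, 0 of 30 cells with macrophage markers and little insulin had a Nos2 UMI, which allows up to 10% by the same limit, and in untreated islets 1 of 34 such cells had one. Their median depth was 9421.5 UMIs, against 12307.5 in the β-cells, and 86.7% of them had an Ins1 UMI. Other non-endocrine classes did hold Nos2 UMIs, in 4 of 22 endothelial, 4 of 7 mesenchymal, 5 of 7 ductal and 1 of 15 acinar cells, named by their markers. The source of these UMIs was not tested.

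Depth moved with the groups. Nos2-positive cells had a median of 12866.5 UMIs (quartiles 10572.5 and 15488) and Nos2-negative cells 10903.5 (8501.75 and 13399.8), with overlapping ranges. Median detected genes were 2918.5 and 2791, respectively. In the shallowest 408 β-cells (4150 to 10770 UMIs) 58.8% were Nos2-positive, in the middle 408 this was 73.8%, and in the deepest 408 (13906 to 28847 UMIs) 83.6%. When each cell was thinned to 4000 UMIs, 61.0% (58.2 to 63.8) kept a Nos2 UMI, and the 3 depth classes gave 50.7%, 61.8% and 70.6%. Thinning removed every Nos2 UMI from 135 of the 882 positive cells (15.3%), and from 50 of the 88 with 1 UMI. A part of the Nos2-negative cells may therefore hold Nos2 mRNA below detection. Other measures differed little. Median mitochondrial UMIs were 5.25% in positive and 4.68% in negative cells, insulin UMIs 32.8% and 30.3%, and ribosomal protein UMIs 8.27% and 9.31%. Of all 2480 barcodes of this library, 7 also occurred in another library. The barcode of 1 β-cell was that of a kept cell in another library.

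Genes were compared where at least 10% of the β-cells had a UMI, which left 7365. Of these, 225 (3.05%) were at least 1.5-fold higher in Nos2-positive cells and 468 (6.35%) at least 1.5-fold lower. The median log2 ratio was -0.13, with 5% of genes below -0.63 and 5% above 0.47. Relative to that median, 392 genes were higher and 212 lower, so that the balance between the directions depends on the centring. With hormone genes left out of the totals, 287 were higher and 354 lower. At 2-fold there were 46 higher and 40 lower. Of the 225 higher genes, 221 kept their direction after thinning and in each of the 3 depth classes, and of the 468 lower genes 389 did.

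Chemokine and NF-κB target genes headed the higher genes. The detection filter ran over all β-cells, so 61 of the 468 lower genes passed it only through the negative group and 60 of the 225 higher genes only through the positive group, among them Tnfaip2, Cxcl9 and Hamp, which were detected in 4.09%, 7.60% and 7.02% of negative cells. Ccl2, a monocyte chemoattractant (chr11:82035571-82037453), was at 581 CPM (567 to 595) in Nos2-positive and 137 CPM (125 to 149) in Nos2-negative cells, a log2 ratio of 2.09. It was detected in 49.3% of positive and 18.4% of negative cells, and in 37.2% and 12.9% after thinning. In the negative group 5 cells held 48.7% of its UMIs. Tnfaip2, a TNF-induced gene, was at 47.5 and 8.17 CPM, a log2 ratio of 2.54 (2.02 to 3.11). That ratio rests on 31 UMIs in the negative cells, of which 67.7% were in 5 cells. Cxcl9, a ligand of the T-cell receptor CXCR3, was at 247 and 59.6 CPM, and Cxcl1, a neutrophil chemoattractant, at 183 and 48.0 CPM. For Cxcl9, too, 5 cells held 62.4% of the UMIs of the negative group. Cxcl10, the most abundant chemokine and another CXCR3 ligand (chr5:92346638-92348889), was at 3080 CPM (3048 to 3112) and 1466 CPM (1428 to 1505), a log2 ratio of 1.07. In single cells, Cxcl10 ran from 0 to 275 UMIs per 10000 in positive cells with a median of 20.5, and from 0 to 141 in negative cells with a median of 3.995. The groups overlapped widely, as 23.1% of negative cells were at or above the median of the positive cells. Icam1, an adhesion molecule for leukocytes (chr9:21015985-21028817), was at 467 CPM (454 to 479) and 190 CPM (176 to 204). It was detected in 84.4% and 44.2% of cells, and 18.1% of negative cells reached the positive median of 3.58 UMIs per 10000. Cd40, a costimulatory receptor, was at 182 and 67.5 CPM.

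Of 8 tested chemokines and cytokines, 5 were higher and 0 lower (3.05% and 6.35% of all tested genes were). The list median log2 ratio was 0.83 against -0.13 over all tested genes. Cxcl9, 1 of the 5, passed the filter only through the positive group. Of 25 tested NF-κB subunits, inhibitors and targets, 7 were higher and 0 lower (3.05% and 6.35% of all tested genes were). The list median was 0.38. Tnfaip2, 1 of the 7, passed the filter only through the positive group. The higher members were targets and the ubiquitin-editing inhibitor Tnfaip3 (A20, 131 and 69.3 CPM), Sod2, the mitochondrial superoxide dismutase (1068 and 628 CPM), Tnfaip8, Birc3, Icam1, Cd40 and Tnfaip2. The inhibitor genes Nfkbia (625 and 608 CPM), Nfkbiz (169 and 167) and Bcl3 (107 and 105) were nearly level between the groups, and so were the subunit genes Rela (45.4 and 48.0) and Relb (40.0 and 40.1). Among 14 tested genes of IL-1 receptor signalling, with a median of 0.03, 3 were higher and 0 lower (3.05% and 6.35% of all tested genes were). They were Tifa, an adaptor for TRAF6 (297 and 185 CPM), Myd88 (46.5 and 27.9) and the kinase gene Irak2 (12.2 and 4.48), which had 17 UMIs in negative cells and passed the filter only through the positive group. The receptor itself, Il1r1, was at 82.5 CPM in positive and 119 CPM in negative cells, a log2 ratio of -0.53 (-0.69 to -0.36), below 240 CPM in untreated cells in both groups. It was detected in 57.6% and 59.4% of cells, but in 25.9% and 37.4% after thinning.

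Some interferon-linked genes differed in the same direction, while others lay between the thresholds. Gbp2, a guanylate-binding protein of cell-autonomous defense, was at 2074 CPM (2048 to 2101) in positive and 1062 CPM (1029 to 1095) in negative cells, a log2 ratio of 0.97. It had a UMI in 98.9% and 74.3% of cells. Gbp5 was at 370 and 196 CPM and Gbp4 at 656 and 351 CPM. Of 9 tested guanylate-binding proteins, 6 were higher and 0 lower (3.05% and 6.35% of all tested genes were). The list median was 0.75, while Gbp7 was at 373 and 365 CPM. Of 29 tested antiviral effectors and sensors, 16 were higher and 0 lower (3.05% and 6.35% of all tested genes were). The list median was 0.60. Of the 16, Oas1a and Oasl1 passed the filter only through the positive group. They included Ifit2 (71.5 and 29.3 CPM) and the ubiquitin-like Isg15 (144 and 60.4), and also Rsad2, which codes for viperin (183 and 98.6). Defb1, a β-defensin on this list, was at 963 and 491 CPM, and reached 999 CPM with IL-1β alone against 57.5 CPM with IFN-γ alone. Of 8 tested immunity-related GTPases, Ifi47, Gm4951 and Tgtp1 were higher and 0 lower (3.05% and 6.35% of all tested genes were). The list median was 0.57. Gm4951 and Tgtp1 passed the filter only through the positive group (detected in 6.73% and 7.31% of negative cells). Of 24 tested antigen presentation genes, 5 were higher and 0 lower (3.05% and 6.35% of all tested genes were). The list median was 0.47. The higher genes were 3 class I genes of the H2-Q group, Cd74 (47.8 and 13.7 CPM) and B2m (803 and 525 CPM). The last 2 code for the class II invariant chain and the class I light chain. Cd74 passed the filter only through the positive group, with detection in 9.94% of negative cells. Reads of near-identical family members (Gbp, H2-Q, Ifit, Hspa1a with Hspa1b) may be split or lost in counting, which limits values of single members.

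Of 18 tested IFN-γ receptor and JAK-STAT genes, 2 were higher (3.05% of all tested genes were), with a median log2 ratio of 0.26 against -0.13 over all tested genes. They were the feedback inhibitor Socs1 (110 and 69.1 CPM) and the kinase gene Jak2 (66.6 and 43.8). Irf1 (chr11:53770014-53778374), a transcription factor for Nos2, was at 341 CPM (331 to 352) and 288 CPM (271 to 305), a log2 ratio of 0.25. In single cells, its median was 3.04 UMIs per 10000 in positive and 2.23 in negative cells, and 35.1% of negative cells reached the positive median. Untreated cells held 19.6 CPM of Irf1, so that both groups were far above them.

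**Figure D1:**
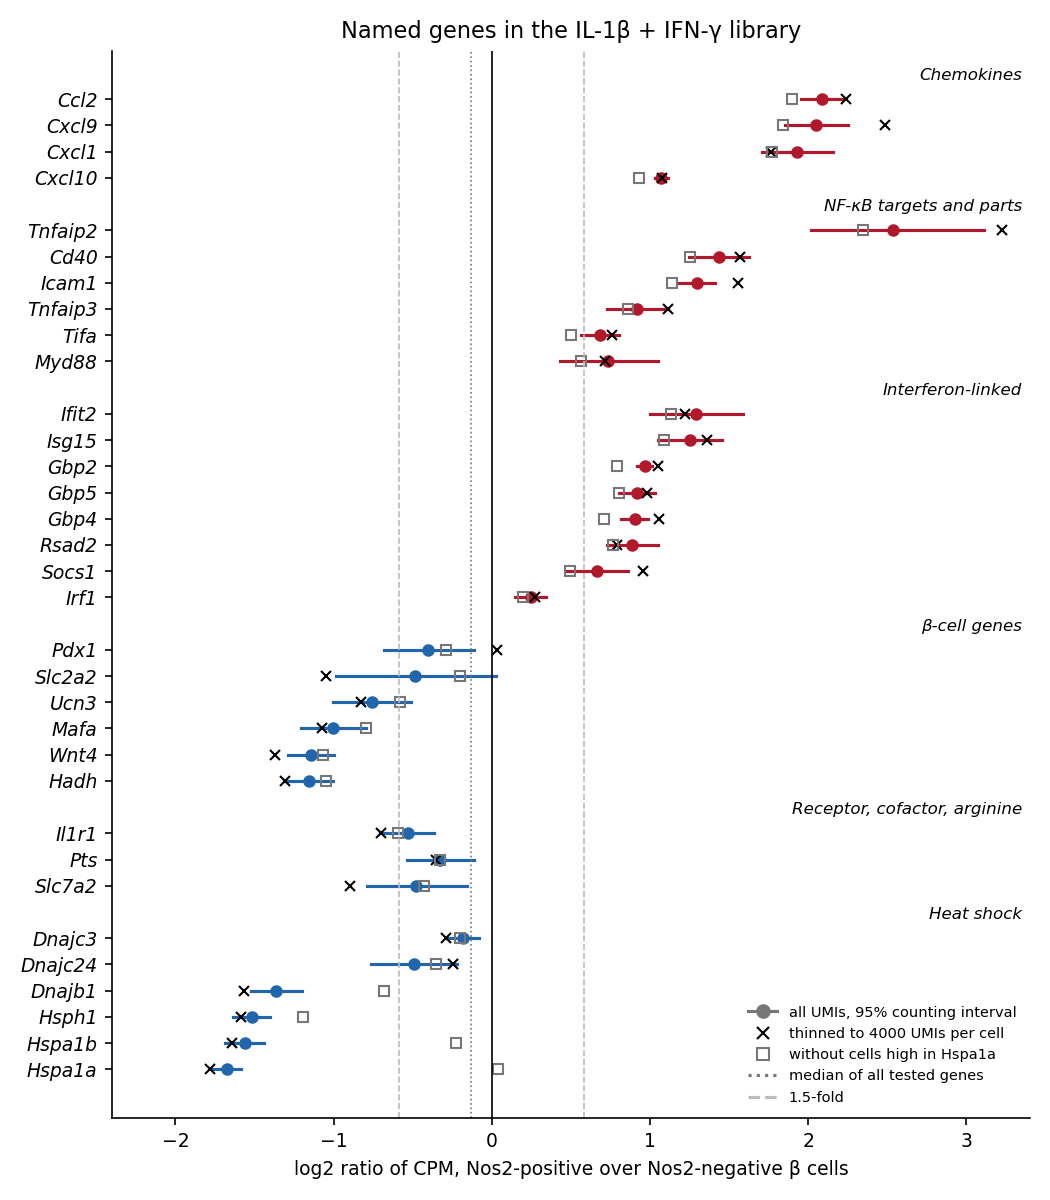
Log2 ratios of CPM (x axis), Nos2-positive over Nos2-negative β-cells, of selected named genes (rows), with 95% counting intervals. Crosses are values after thinning and squares those without cells high in Hspa1a; Ccl2 (2.09), Icam1 (1.30) and Cxcl10 (1.07) lie right of 0, whereas Hspa1a moves from -1.67 to 0.04 when those cells are left out.

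Short stretches before the RefSeq start of 4 of these genes are shown because the genes differ in how far they went with Nos2. They are RefSeq sequences of GRCm38.p6, written 5′ to 3′ along the gene. Capitals mark matches on either strand to the NF-κB consensus, to GAAA, any 2 bases and GAAA as an ISRE or to TTCNNNGAA as a GAS, and overlapping matches run together.
Cxcl10: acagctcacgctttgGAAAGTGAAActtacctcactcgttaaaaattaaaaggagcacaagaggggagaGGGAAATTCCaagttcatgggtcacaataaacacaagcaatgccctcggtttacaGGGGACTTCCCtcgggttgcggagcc
Cxcl1: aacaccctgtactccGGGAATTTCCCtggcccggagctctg
Icam1: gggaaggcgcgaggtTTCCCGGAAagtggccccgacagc
Irf1: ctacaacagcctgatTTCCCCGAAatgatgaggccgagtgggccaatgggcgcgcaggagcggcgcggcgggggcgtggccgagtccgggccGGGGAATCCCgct
The Cxcl10 stretch is chr5:92348968-92349117 (minus strand), with the ISRE 213 bases and NF-κB matches 159, 104 and 103 bases before the start. The Cxcl1 stretch is chr5:90891159-90891199, with NF-κB matches 71 and 70 bases before the start. Those of Icam1 (chr9:21015883-21015921) and Irf1 (chr11:53769909-53770013) are on the plus strand. In Icam1 the capitals mark a GAS, and in Irf1 a GAS and an NF-κB match. Of the 94 genes named by rule, 76 had an entry. Over the 250 bases before the start, 21.97% of 173 higher genes with an entry held an NF-κB match in at least 1 entry. The same was so for 10.6% of 5866 tested genes, 9.97% of 371 lower genes and 8.23% of all 27025 genes with an entry. ISRE matches were found in 11.0% of the higher genes, 3.24% of the tested and 2.43% of the lower genes, and in 3.46% of the 27025. GAS matches were found in 9.25%, 6.80% and 5.93%, and in 8.13% of the 27025. These matches describe letters only.

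Nos2-negative cells were, in the main, not untreated-like. They held Cxcl10 at 1466 CPM against 2.17 CPM in untreated cells, 66.2 CPM with IL-1β alone and 75.9 CPM with IFN-γ alone. Icam1 was at 190 CPM against 0.252, 136 and 3.54 CPM, and Gbp2 at 1062 CPM against 1.51, 291 and 823 CPM. Nos2-negative cells of the combined treatment thus held more of these mRNAs than the β-cells of either library with 1 cytokine. To follow this cell by cell, the 50 genes with the largest ratio over untreated cells in the IL-1β library were summed, as were the 50 with the largest ratio in the IFN-γ library. These sets leave out Nos2, share 9 genes, and were chosen after seeing the data. The libraries that chose them hold none of the Nos2-positive and Nos2-negative cells with both cytokines. Low values in untreated cells and high values in the library that chose a set follow from that choice. Comparisons with those libraries below are descriptions only. The IL-1β set had a median of 0.611 UMIs per 10000 in untreated cells, 56.1 in Nos2-negative and 125 in Nos2-positive cells, and 40.8 and 68.6 in the same groups with IL-1β alone. Without the 9 shared genes these 4 medians were 21.1, 50.4, 34.6 and 56.7, so that the Nos2-negative cells with both cytokines were then below those with IL-1β alone. The IFN-γ set had medians of 1.24, 67.7 and 124, and 71.6 with IFN-γ alone. Without the shared genes the last 3 were 37.7, 53.9 and 57.3, so that Nos2-positive cells were then below those with IFN-γ alone. Of 46 tested genes of the IL-1β set, 32 were higher and 0 lower in Nos2-positive cells (3.05% and 6.35% of all tested genes were). The median log2 ratio was 0.88. Among the 32, at least Hamp, Sprr1a, Glipr2 and Cfb passed the filter only through the positive group. They were detected in 7.02%, 7.89%, 7.89% and 9.65% of negative cells. Of 48 tested genes of the IFN-γ set, 27 were higher and 0 lower, with a median of 0.67. Among the 27, at least Gm4951 and Tgtp1 passed the filter only through the positive group.

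A minority of Nos2-negative cells stood apart. For the IL-1β set, 29 of 342 (8.48%) were within the 95th percentile of untreated cells, against 0 of 882 Nos2-positive cells. For the IFN-γ set, 35 of 342 (10.2%) and 1 of 882 (0.113%) were. Both sets were within it in 25 cells (7.31%), and neither in 303 (88.6%). After thinning to 4000 UMIs, both sets were within it in 39 Nos2-negative cells (11.4%, 8.24 to 15.3) and in 0 of the positive cells. The 25 cells held 0 UMIs of Gbp2 and 0 of Icam1, which are members of these sets, so that their choice fixed this. Their Mafa level was 88.6 CPM (54.1 to 137), near the 82.9 CPM of the 303 cells above the range in both sets, and below the 623 CPM of untreated cells. Hadh was at 239 CPM (180 to 312) in the 25 cells and 316 CPM in untreated cells. These cells had a median of 8695 UMIs, and 10 of them were high in Hspa1a.

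**Figure D2:**
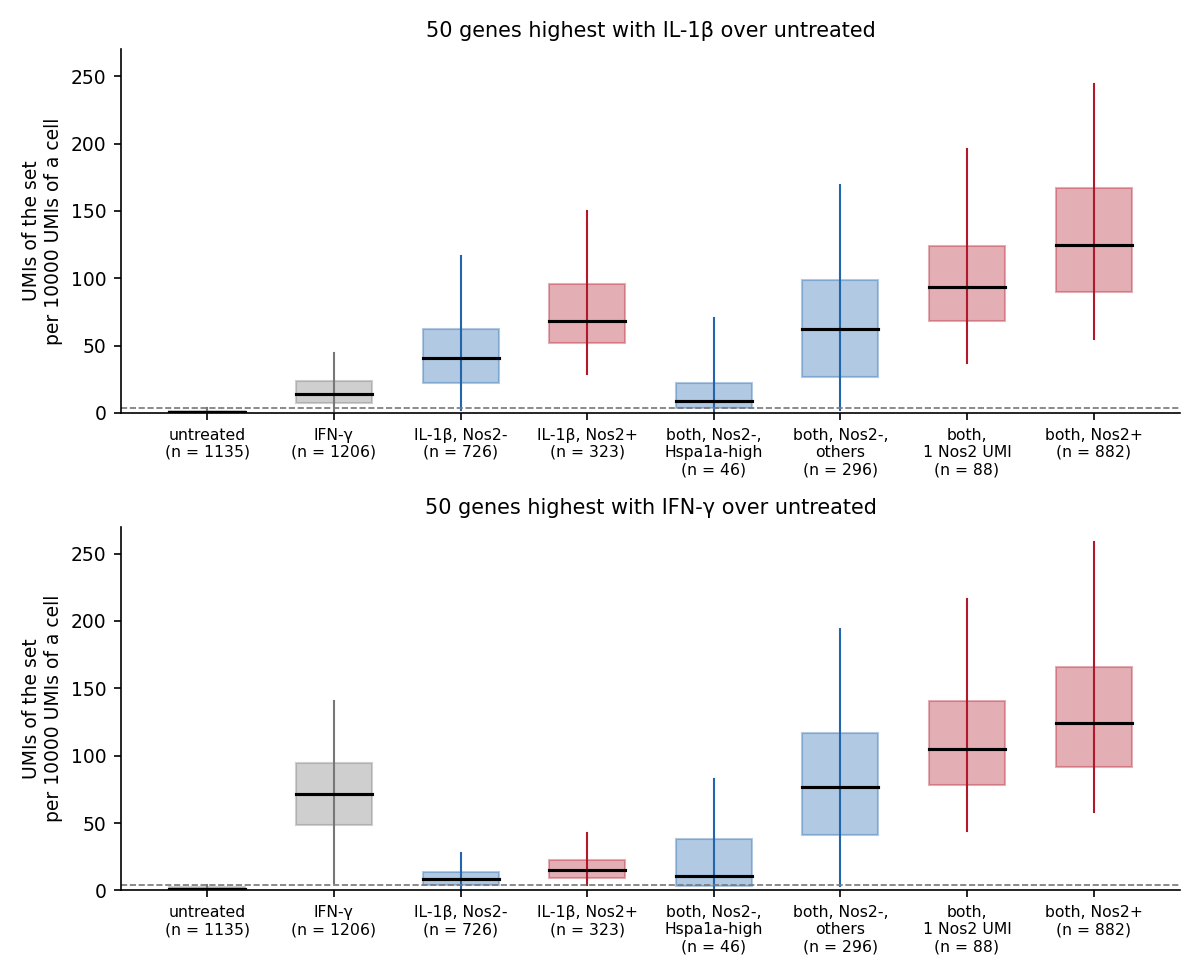
UMIs of each set of 50 genes per 10000 UMIs of a cell (y axis) by group of β-cells (x axis); boxes are quartiles, black lines medians, whiskers the 5th and 95th percentiles, and the dashed line the 95th percentile of untreated cells. Nos2-negative cells that are not high in Hspa1a lie well above it, at medians of 62.7 and 76.9, while those high in Hspa1a have medians of 8.68 and 10.5.

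Some β-cell identity and secretion genes were lower in Nos2-positive cells. Of 33 tested genes of this list, 0 were higher, 9 lower (6.35% of all tested genes were) and 24 between the thresholds, with a median log2 ratio of -0.29 against -0.13 over all tested genes. Hadh, which codes for a fatty acid oxidation enzyme that restrains insulin release (chr3:131233419-131272101), was at 72.4 CPM (67.6 to 77.4) in positive and 161 CPM (149 to 174) in negative cells. It was detected in 55.0% and 76.0% of cells. Wnt4, a secreted signal of mature β-cells (chr4:137277489-137299726), was at 78.9 and 174 CPM, a log2 ratio of -1.14. Mafa, a transcription factor of mature β-cells (chr15:75745490-75748228), was at 41.8 CPM (38.1 to 45.6) and 83.6 CPM (74.6 to 93.3). Ucn3, a peptide hormone of mature β-cells, was at 32.9 and 55.6 CPM. Rfx6, Mlxipl, Trpm5, Sytl4 and Ppp1r1a were also lower. Both groups were below untreated cells, which held 316 CPM of Hadh, 381 of Wnt4, 623 of Mafa and 169 of Ucn3. The Nos2-negative cells thus lay between untreated and Nos2-positive cells for these 4 genes. Slc2a2, the glucose transporter, was at 9.40 and 13.2 CPM against 139 CPM in untreated cells, and its log2 ratio of -0.49 (-0.98 to 0.03) was within counting error, while after thinning it was -1.04. Pdx1 was at 29.8 and 39.3 CPM, with a log2 ratio of -0.40 that became 0.03 after thinning. Iapp, Chga, Chgb, Scg2, Pcsk1, Pcsk2 and Abcc8, which serve the secretory granule and its release, had log2 ratios between -0.05 and 0.16. Among the genes named by rule, Ctnnbip1, an inhibitor of β-catenin, was the lowest outside the heat shock list, at 15.96 and 43.5 CPM (log2 ratio -1.45).

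Some heat shock chaperones were lower in Nos2-positive cells, and for Hspa1a and Hspa1b this depended on few cells. Of 26 tested members, 0 were higher, 10 lower (6.35% of all tested genes were) and 16 between the thresholds, with a median log2 ratio of -0.44 against -0.13 over all tested genes. Hspa1a (chr17:34969190-34972156), an inducible Hsp70, was at 175 CPM (167 to 182) in positive and 556 CPM (533 to 581) in negative cells. The share of cells with a UMI was nearly equal, at 47.9% and 48.5%. In 46 of 342 Nos2-negative cells (13.5%, 10.0 to 17.5) and in 26 of 882 Nos2-positive cells (2.95%, 1.93 to 4.29), Hspa1a reached at least 10 UMIs per 10000. These 46 cells held 80.9% of the Hspa1a UMIs of the negative group. Without the cells at or above this limit, the log2 ratio of Hspa1a went from -1.67 to 0.04 and that of Hspa1b from -1.56 to -0.23. The cells left out were chosen by Hspa1a itself, so that its shift towards 0 follows from that choice. Hsph1, an Hsp110 co-chaperone (105 and 300 CPM), went only from -1.52 to -1.20, and Dnajb1, an Hsp40, from -1.36 to -0.68. The median of the list was then -0.33. Hspa8, the constitutive Hsc70 and the most abundant member, was at 1973 and 1854 CPM. The J-domain genes Dnajc3 and Dnajc24 were at 262 and 297 CPM and at 30.7 and 43.2 CPM. The genes higher in Nos2-positive cells numbered 161 without the Hspa1a-high cells, and Cxcl10, Icam1, Gbp2 and Hadh had log2 ratios of 0.93, 1.14, 0.79 and -1.05.

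Seen from Hspa1a, 36.1% (25.1 to 48.3) of the 72 cells at or above the limit had a Nos2 UMI, against 74.3% of the 1152 below it. Below the limit there was no order, with 72.3% at 0 Hspa1a UMIs, 76.9% above 0 and under 2 per 10000, 80.0% from 2 to under 5, and 68.4% from 5 to under 10. In the IL-1β library, 3 of 79 cells at or above the limit (3.80%, 0.791 to 10.7) were Nos2-positive, against 33.0% of 970 below it. Median depth was 12041.5 UMIs in the 72 cells and 12316.5 in the others. The 26 Nos2-positive cells high in Hspa1a had a median of 122 UMIs per 10000 of the IL-1β set, close to the 125 of all Nos2-positive cells, whereas the 46 Nos2-negative ones had 8.68. Within the Nos2-negative group, Mafa was at 157 CPM in the 46 cells and 71.7 CPM in the other 296, and Irf1 at 242 and 295 CPM. The limit is a range on a scale rather than a cell type, and 31 cells lay within 2 UMIs per 10000 of it.

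**Figure D3:**
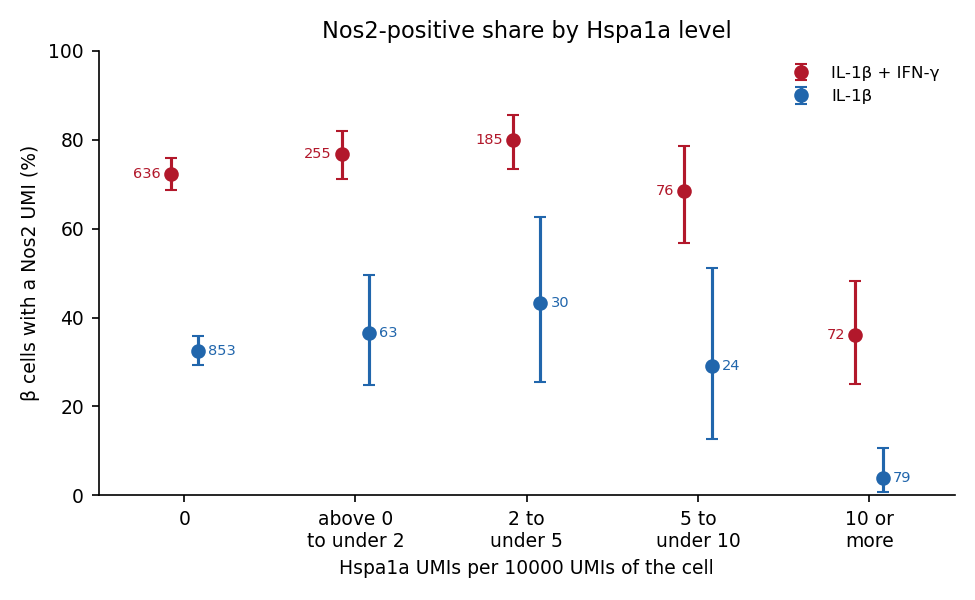
Share of β-cells with a Nos2 UMI (y axis, %) by Hspa1a UMIs per 10000 (x axis) in the libraries with both cytokines and with IL-1β, with exact 95% binomial intervals and the number of cells beside each point. With both cytokines the share is between 68.4% and 80.0% below 10 per 10000, and it is lower in the last band of each library, at 36.1% and 3.80%.

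Of 7 tested genes for tetrahydrobiopterin and arginine, 0 were higher and 0 lower, with a median log2 ratio of -0.26. With 3.05% and 6.35% of all tested genes past the threshold, so short a list says little by its count. Gch1, the first enzyme of tetrahydrobiopterin synthesis, was at 358 and 341 CPM, and at 322 CPM in untreated cells. The arginine transporter gene Slc7a2 was at 23.3 CPM in positive and 32.4 CPM in negative cells (log2 ratio -0.48), and Pts and Qdpr, of cofactor synthesis and recycling, were at 55.0 and 68.8 CPM and at 70.2 and 91.2 CPM.

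Stress and death genes were read against the 3.05% of all tested genes that were higher. Of 25 tested genes of the unfolded protein and integrated stress response, 2 were higher, Atf3 (34.2 and 15.03 CPM) and Chac1 (83.6 and 50.6), with a list median of -0.03. The chaperone gene Hspa5 was at 1437 and 1456 CPM and Ddit3 at 241 and 299 CPM. Of 18 tested apoptosis genes, 4 were higher, among them Fas, a death receptor (48.0 and 26.4 CPM), with a list median of 0.41. Of 14 tested immediate early genes, 1 was higher, Klf6, so that no more than 1 gene lies behind this count. Of 18 antioxidant and metallothionein genes, the metalloreductase gene Steap4 was higher (228 and 115 CPM) and Gclc, a subunit of the glutathione synthesis enzyme, lower (16.2 and 25.05 CPM). Il4i1, an amino acid oxidase, and Hamp, the iron hormone hepcidin, were among the 15 highest genes by rule, at 193 and 66.2 CPM and at 205 and 59.1 CPM, respectively. Hamp was detected in 23.8% and 7.02% of cells, and 5 cells held 71.0% of its UMIs in the negative group.

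Levels were also read over the number of Nos2 UMIs in a cell, with 342, 88, 136, 186, 244 and 228 cells at 0, 1, 2 to 3, 4 to 7, 8 to 15 and 16 or more. Icam1 was at 190, 348, 347, 431, 462 and 600 CPM in this order. It was thus already higher at 1 UMI, just inside the threshold, and highest in the last band. Cxcl10 was at 1466, 2895, 2123, 2774, 3153 and 3806 CPM, and Ccl2 at 137, 182, 376, 330, 664 and 921 CPM. Ccl2 was highest in the last band of the full counts. Grouped on thinned counts it was at 209, 317, 460, 778 and 670 CPM with 0, 1, 2 to 3, 4 to 7 and 8 or more Nos2 UMIs, and so highest at 4 to 7. Irf1 was between 288 and 375 CPM, and in the thinned groups just named at 307, 309, 320, 384 and 441 CPM. Hadh was at 161, 98.1, 86.2, 69.5, 71.0 and 59.9 CPM, and Wnt4 at 174, 124, 97.8, 88.9, 72.8 and 52.7 CPM. Hspa1a, in contrast, was at 556 CPM with 0 UMIs and between 158 and 200 CPM in all other bands. Median depth was 10903.5 UMIs at 0 and 13826.5 at 16 or more. Cells grouped again on their thinned counts had Icam1 at 220, 426, 461, 606 and 642 CPM with 0, 1, 2 to 3, 4 to 7 and 8 or more Nos2 UMIs, and Hadh at 155, 87.1, 71.0, 77.3 and 56.6 CPM.

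**Figure D4:**
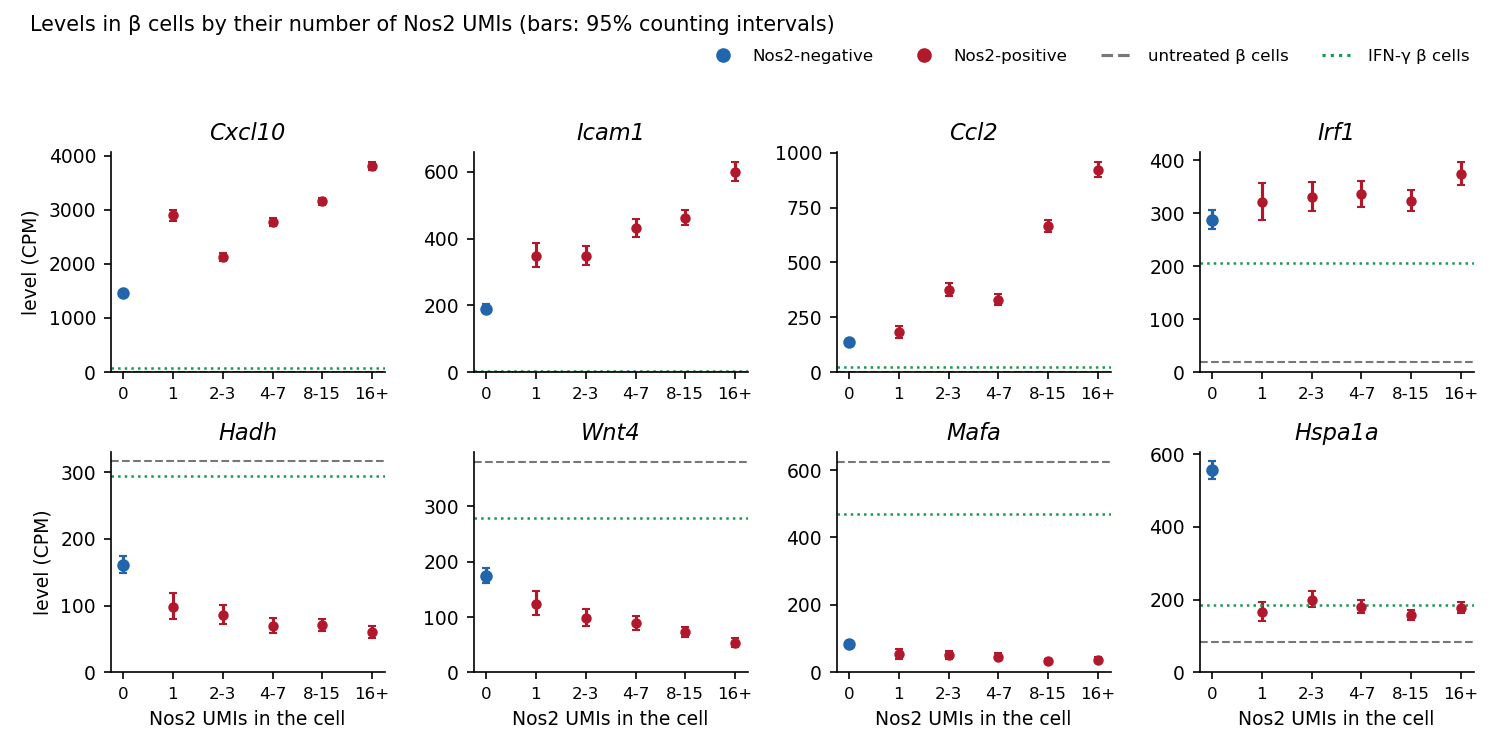
Levels of 8 genes (y axis, CPM) by the number of Nos2 UMIs of the β-cells (x axis) with 95% counting intervals; dashed and dotted lines are untreated and IFN-γ β-cells. Cxcl10, Icam1 and Ccl2 are highest at 16 or more UMIs, Irf1 is between 288 and 375 CPM, Hadh, Wnt4 and Mafa are lower in each Nos2-positive band than at 0, and Hspa1a is high only at 0.

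The same split in the IL-1β library had 323 positive and 726 negative cells. There, 61 of 6772 genes (0.901%) were higher and 128 (1.89%) lower. Ccl2 had a log2 ratio of 1.97 in that library and 2.09 with both cytokines, Icam1 1.31 and 1.30, Cxcl10 1.17 and 1.07, Wnt4 -0.98 and -1.14, Hsph1 -1.42 and -1.52, and Hadh -0.63 and -1.15. Hamp differed, at 0.10 and 1.79, as did Irf1, at -0.38 and 0.25. Slc2a6 was at 0.03 and 1.86, Exoc3l4 at 0.37 and 1.52, and Sprr1a at 0.48 and 1.66. With IL-1β alone Slc2a6 and Exoc3l4 were detected in 5.1% and 7.2% of β-cells, so they are not among the 6772 genes. Their intervals there were -0.85 to 0.86 and -0.30 to 1.03. Hamp, Slc2a6, Exoc3l4 and Sprr1a were picked among the 15 highest genes with both cytokines. There they passed the filter only through the positive group. Hspa1a was at -2.60 and -1.67. These genes are examples. The difference between the libraries was not tested, and their depths differ, with median UMIs of 8562 and 12307.5 in β-cells.

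Markers of other cells were read beside these results. Of the endothelial markers the summed level was 3.71 CPM in positive and 1.85 CPM in negative cells, and of the mesenchymal markers 0.345 and 0 CPM. Summed acinar markers, led by Ctrb1, were at 227 and 479 CPM. The 6 macrophage markers summed to 164 and 91.2 CPM. Of these, C1qa was at 156 and 80.7 CPM and at 71.2 CPM in untreated β-cells, while 2 of the others were at 0 in both groups. The rest of the sum was lower in positive than in negative cells. The α-cell gene Ttr was at 55.6 and 129 CPM (195 in untreated β-cells) with Gcg at 85.8 and 79.9 CPM. Sst was at 66.3 and 21.6 CPM and Ppy at 168 and 86.0 CPM, which the β-cell rule caps at 1% of a cell. For Sst, 5 cells held 67.2% of the UMIs of the positive group and 5 cells 62.2% of those of the negative group. It was detected in 12.2% and 10.5% of cells, and in 4.31% and 5.26% after thinning. Ppy was detected in 52.7% and 44.2%, and in 21.9% of each group after thinning. The part of such RNA in the differences was not tested. Without the Hspa1a-high cells the log2 ratio of Ctrb1 went from -0.89 to 0.10, and that of Sst from 1.62 to 1.05.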

How the data were processed

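The deposited files hold raw counts (UMIs per gene and barcode), made by the authors with Cell Ranger on mm10 per the submitters' processing notes; the matrix headers name software version 3.0.0. The kit version differs between the labels and the study's methods. Values were neither normalized nor corrected for free RNA. Total UMIs were 50731370 (untreated), 20056630 (IL-1β), 31209339 (IFN-γ) and 25716645 (both). Counts were summed over cells and divided by the group's total, with Python 3.11.15, numpy 2.4.6 and scipy 1.17.1. Intervals were exact Poisson for CPM, Clopper-Pearson for shares and conditional binomial for ratios, all at 95%. Genes with a UMI in at least 10% of β-cells were compared, and 1.5-fold was the threshold. Thinning drew 4000 UMIs per cell once. Scrublet (scanpy 1.11.5) called 10 of 2280 barcodes (0.439%), too few to have worked, so doublets were in effect not removed. With 1 library per condition no test was possible. Named genes were the 15 highest and 15 lowest that kept their direction after thinning and in each depth class (Nos2, hormone and mitochondrial genes left out), genes the study names for this comparison, and up to 4 per list with the largest absolute log2 ratio; other list members are given as examples chosen after their values were seen. The cells, genes and lists were chosen with earlier results of these data known. The code was checked on simulated data. Some genes are not reported here.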

Additional observations from a re-analysis of the deposited data

Results flagged for a closer look

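Nos2 UMIs were also found in endocrine cells outside the comparison. In the library with both cytokines, 37.7% (30.7 to 45.2) of 183 cells led by Gcg and 55.4% (42.5 to 67.7) of 65 cells led by Sst had at least 1, against 0 of 83 and 0 of 39 in untreated islets. Their median depths were 8919 and 6585 UMIs. Of 105 cells that met the β-cell rule but had over 4000 detected genes, 84.8% (76.4 to 91.0) were Nos2-positive, at a median of 19719 UMIs.

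For 5 genes the log2 ratio had the opposite sign in the IL-1β library, with counting intervals that leave out 0 in both libraries; the difference itself was not tested. Atf3 was at -0.94 there and 1.18 with both cytokines, on 13 and 51 UMIs in the IL-1β library. Irf7 was at -0.89 and 0.56, and Irf1 at -0.38 and 0.25. Rbp4 was at -1.04 and 0.54, but with both cytokines it was at 0.03 after thinning and 0.13 without the Hspa1a-high cells. Pyy was at -1.74 and 0.46, and 5 cells held 86.2% of its UMIs in the Nos2-negative cells with both cytokines, where its log2 ratio was -0.36 in the shallowest 408 cells.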

How the results depend on the processing

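The Nos2-positive share (72.1%) was 61.0% after thinning, 75.3% in cells with at least 8000 UMIs, 58.8% in the shallowest 408 cells and 83.6% in the deepest. With counts and groups both thinned, the count of higher genes (225 of 7365) was 122 of the 4012 that pass the filter after thinning. It was 24 on natural-log values, each the log of a group's mean per-cell UMIs per 10000 plus a pseudocount of 1. With every detected gene it was 2736 of 15949. In the 3 depth classes it was 515, 502 and 862, and relative to the median 392. The count of lower genes (468) was 257 of those 4012 with thinned counts and 134 with thinned groups too (over all 7365 genes, thinned counts gave 416 higher and 868 lower), 8 on natural-log values, 3662 with every detected gene, 958 in the shallowest cells and 212 relative to the median. Without the Hspa1a-high cells, which were chosen by this gene, Hspa1a was at 0.039. In the middle depth class Sst was at -1.30 and the δ-cell list median at -0.26, and under a stricter β-cell rule the PP-cell list median was -0.29. In the IL-1β library Irak2 was at -0.11, Atf3 at -0.94, H2-Q4 at -0.28, Klf6 at -0.17 and Casp4 at -0.13. The causes were not tested. Of 70 named genes past the threshold, 68 kept their direction in 14 settings, all but Sst and Hspa1a, and 41 stayed past it. These 14 settings leave out the IL-1β library split and the natural-log values, on which far fewer genes passed the threshold. The 15 highest and 15 lowest genes were chosen to keep their direction after thinning and in each depth class. For them, this part of the count was fixed by the choice. Centring, the IL-1β library split and the sets of 50 genes were added after seeing the data. No paired analysis was possible because each condition has 1 library.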
